A study of Homo sapiens with 9 samples.

Results

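The AP-1, CREB and EGR1 transcription factors were followed in BL2 cells, an established human Burkitt lymphoma line of germinal centre B cell type, after 6 hrs with CD40L, after 6 hrs with LPS and in untreated control cells. The members are the 31 probe sets whose platform annotation gives exactly 1 gene, that gene being FOS, FOSB, JUN, JUNB, JUND, BATF, ATF3, CREM, CREB1 or EGR1. They are 31 of 54613 probe sets tested, and 10 of 19775 genes with a probe set of their own. RNA was hybridised to HG-U133 Plus 2.0 arrays, and 3 arrays each came from CD40L, LPS and control cells, 1 of every condition in each of 3 experimental batches. The study describes the batches as independent biological experiments. CD40L was recombinant human CD40 ligand, by which T cells stimulate B cells through CD40, and LPS is a glycolipid of bacteria sensed through Toll-like receptor 4. All cells were of a single line, grown in the same serum-containing medium, with no genetic change between the groups. As in all bulk RNA, fewer cells that carry a transcript and less of it per cell cannot be told apart.

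AP-1 is a family of dimers of basic leucine zipper proteins. FOS and FOSB pair with a JUN protein, and BATF pairs with a JUN protein and, in lymphocytes, works together with IRF4 or IRF8 on composite DNA elements. CREB1 and CREM bind the cAMP response element (CRE) and answer to protein kinase A, and ATF3 is a stress-inducible relative that mostly represses. EGR1 is a zinc finger factor of the immediate early class. In B cells, FOS, FOSB, JUN and EGR1 are known for a burst of transcription in the first hour after a stimulus, before the time point measured here.

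The DNA ahead of each start site was read from RefSeq promoter windows (build GRCh38.p14) to show which of these factors' own binding letters stand there. The windows held 250 bases before the start, and all 10 members matched, with 17 windows in all, 7 of them for CREM, 2 for ATF3 and 1 for each other gene. Some of the 7 CREM windows overlap, as their starts lie close together. Both strands were searched for the CRE (TGACGTCA), its half-site (TGACG), the AP-1 site (TGANTCA), the EGR site (GCGTGGG), and the NF-kB site and the CArG box of serum response factor by name. Each full CRE holds a half-site on either strand. Of all 35116 windows in the RefSeq table, 1.65% held the CRE, 21.2% the half-site, 6.57% the AP-1 site, 6.19% the EGR site, 5.21% the NF-kB site and 1.16% the CArG box. The windows of BATF and JUND and the 2 CREM windows with CRE letters are printed because these 3 genes passed the test below, and that of EGR1 for its paired CArG boxes. Capitals mark CRE, half-site and CArG box matches, and each line runs 5′ to 3′ on the gene's strand and ends at the base before the start.
BATF, chr14:75522219-75522468, plus strand: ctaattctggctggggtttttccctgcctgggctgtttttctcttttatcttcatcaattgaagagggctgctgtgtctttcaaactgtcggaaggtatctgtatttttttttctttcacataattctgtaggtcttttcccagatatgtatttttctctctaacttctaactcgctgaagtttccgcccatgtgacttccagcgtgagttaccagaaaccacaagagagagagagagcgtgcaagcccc
CREM, window 3, chr10:35126977-35127226, plus strand: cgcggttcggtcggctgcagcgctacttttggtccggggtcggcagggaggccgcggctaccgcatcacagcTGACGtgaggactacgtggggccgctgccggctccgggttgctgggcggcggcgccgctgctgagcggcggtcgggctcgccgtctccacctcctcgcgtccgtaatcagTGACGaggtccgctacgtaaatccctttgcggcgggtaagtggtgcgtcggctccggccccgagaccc
CREM, window 7, chr10:35195652-35195901, plus strand: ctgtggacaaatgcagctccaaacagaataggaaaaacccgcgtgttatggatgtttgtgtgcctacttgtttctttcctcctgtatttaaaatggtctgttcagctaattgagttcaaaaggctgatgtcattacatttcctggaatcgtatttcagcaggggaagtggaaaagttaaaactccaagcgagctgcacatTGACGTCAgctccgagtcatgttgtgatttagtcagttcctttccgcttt
JUND, chr19:18281623-18281872, minus strand: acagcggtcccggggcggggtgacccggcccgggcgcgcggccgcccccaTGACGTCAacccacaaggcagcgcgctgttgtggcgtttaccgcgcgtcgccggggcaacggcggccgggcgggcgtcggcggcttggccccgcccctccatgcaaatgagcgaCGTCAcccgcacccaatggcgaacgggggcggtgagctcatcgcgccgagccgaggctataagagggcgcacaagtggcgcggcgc
EGR1, chr5:138465229-138465478, plus strand: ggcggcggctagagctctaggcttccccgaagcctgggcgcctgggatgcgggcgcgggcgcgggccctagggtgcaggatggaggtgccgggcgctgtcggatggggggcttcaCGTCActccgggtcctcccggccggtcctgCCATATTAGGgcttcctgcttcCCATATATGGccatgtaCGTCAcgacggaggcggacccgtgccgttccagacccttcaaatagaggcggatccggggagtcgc
A full CRE stood in 2 windows, that of JUND, 200 bases before the start, and that of the seventh CREM start, 50 bases before it. The seventh CREM start lies 69.1 kb after the first. Half-sites stood in 8 windows of 7 genes, namely FOS, FOSB, JUN, JUNB, JUND, CREM and EGR1. The EGR1 window held 2 CArG boxes, 105 and 83 bases before the start. An EGR site stood in the JUNB window and in that of the second CREM start. The AP-1 and NF-kB letters stood in 0 of the 17 windows, and none of the 6 motifs stood in the windows of BATF, CREB1 or ATF3. DNA outside these windows, such as that ahead of other starts, was not read. A match of letters is a description and not a measured binding site.

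The authors' values are normalised levels on a generalised log2 scale, which is flatter than log2 for dim probe sets and so understates their changes. They ran from 5.46 to 14.8, array medians lay between 6.42 and 6.47, and arrays of a condition correlated at 0.994 to 0.997 over all probe sets. As a rough guide to the floor, 16 probe sets of genes of other tissues, such as albumin and insulin, had means between 5.67 and 6.97. Probe sets differ in brightness for the same amount of RNA, so this is a guide and not a detection limit. In all, 16 of the 31 member probe sets had a mean within it, and a change of these transcripts may not be visible. Of the B cell markers, 7 of 8 were measured and had means of 8.83 to 13.0, and their summed level was 72.5 to 72.9 after CD40L, 72.6 to 73.4 after LPS and 73.7 to 74.5 in control, with 5 of 7 called after CD40L and 3 of 7 after LPS. The 7 T and NK cell markers lay at 6.17 to 6.51 and 7 monocyte and macrophage markers at 6.00 to 6.67, and none of these was called. The summed level of 6 measured germinal centre B cell markers was 55.4 to 55.9 after CD40L, 55.9 to 56.8 after LPS and 58.1 to 58.3 in control, with 4 of 6 genes called after each stimulus. PAX5 had a higher mean after CD40L (10.26) and LPS (10.18) than in control (9.87). The other measured B cell and germinal centre markers had lower means after both stimuli, MS4A1 by little (13.02, 12.99 and 13.05). Of all genes by their brightest probe set, 5.03% were called higher and 2.92% lower for CD40L, and 1.62% and 1.48% for LPS. The part of either marker list in the results below was not tested.

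Differences were tested with limma over all 54613 probe sets with the batch as a term, and a probe set was called at a Benjamini-Hochberg adjusted p of at most 0.05. Between CD40L and control, BATF and 1 probe set of CREM were higher and 1 probe set of JUND was lower, and 28 did not pass. The 2 higher probe sets are 6.45% of the members, beside 3.71% of all probe sets, and the 1 lower is 3.23%, beside 1.87%. After LPS, BATF and 3 probe sets of CREM were higher than in control and 0 members were lower. Over all probe sets the CD40L calls were 2027 higher and 1022 lower, and 1707 and 1694 after quantile normalization. The 4 LPS calls are 12.9% of the members, beside 1.17% of all probe sets called higher and 0.892% called lower. As 3 of these 4 are probe sets of CREM, the share repeats 1 gene. By gene, 2 of 10 were higher after LPS, beside 1.62% of all genes by their brightest probe set. At an unadjusted p under 0.05 the count was 7 of 31 for each stimulus, 22.6%, beside 15.7% of all probe sets for CD40L and 11.6% for LPS. CREM alone gave 5 of the 7 after LPS. After quantile normalization the member calls were 2 higher and 4 lower for CD40L, so the balance of the CD40L calls turned with the scaling. The members had a median log2 fold change of −0.02 for CD40L and 0.0013 for LPS, beside 0.0050 and 0.0029 over all probe sets. Between CD40L and LPS directly, BATF was higher and 1 probe set of CREM was lower. Each is 3.23% of the members, beside 0.3% of all probe sets called higher and 0.0952% called lower, and 8 of 31 had an unadjusted p under 0.05, 25.8% beside 4.98% of all probe sets. Of these 8, CREM gave 4. After quantile normalization 1 member was called higher and 3 lower. Both comparisons with control share the same 3 control arrays. The members were chosen with earlier results of these data known, so these shares are a description.

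**Figure D1:**
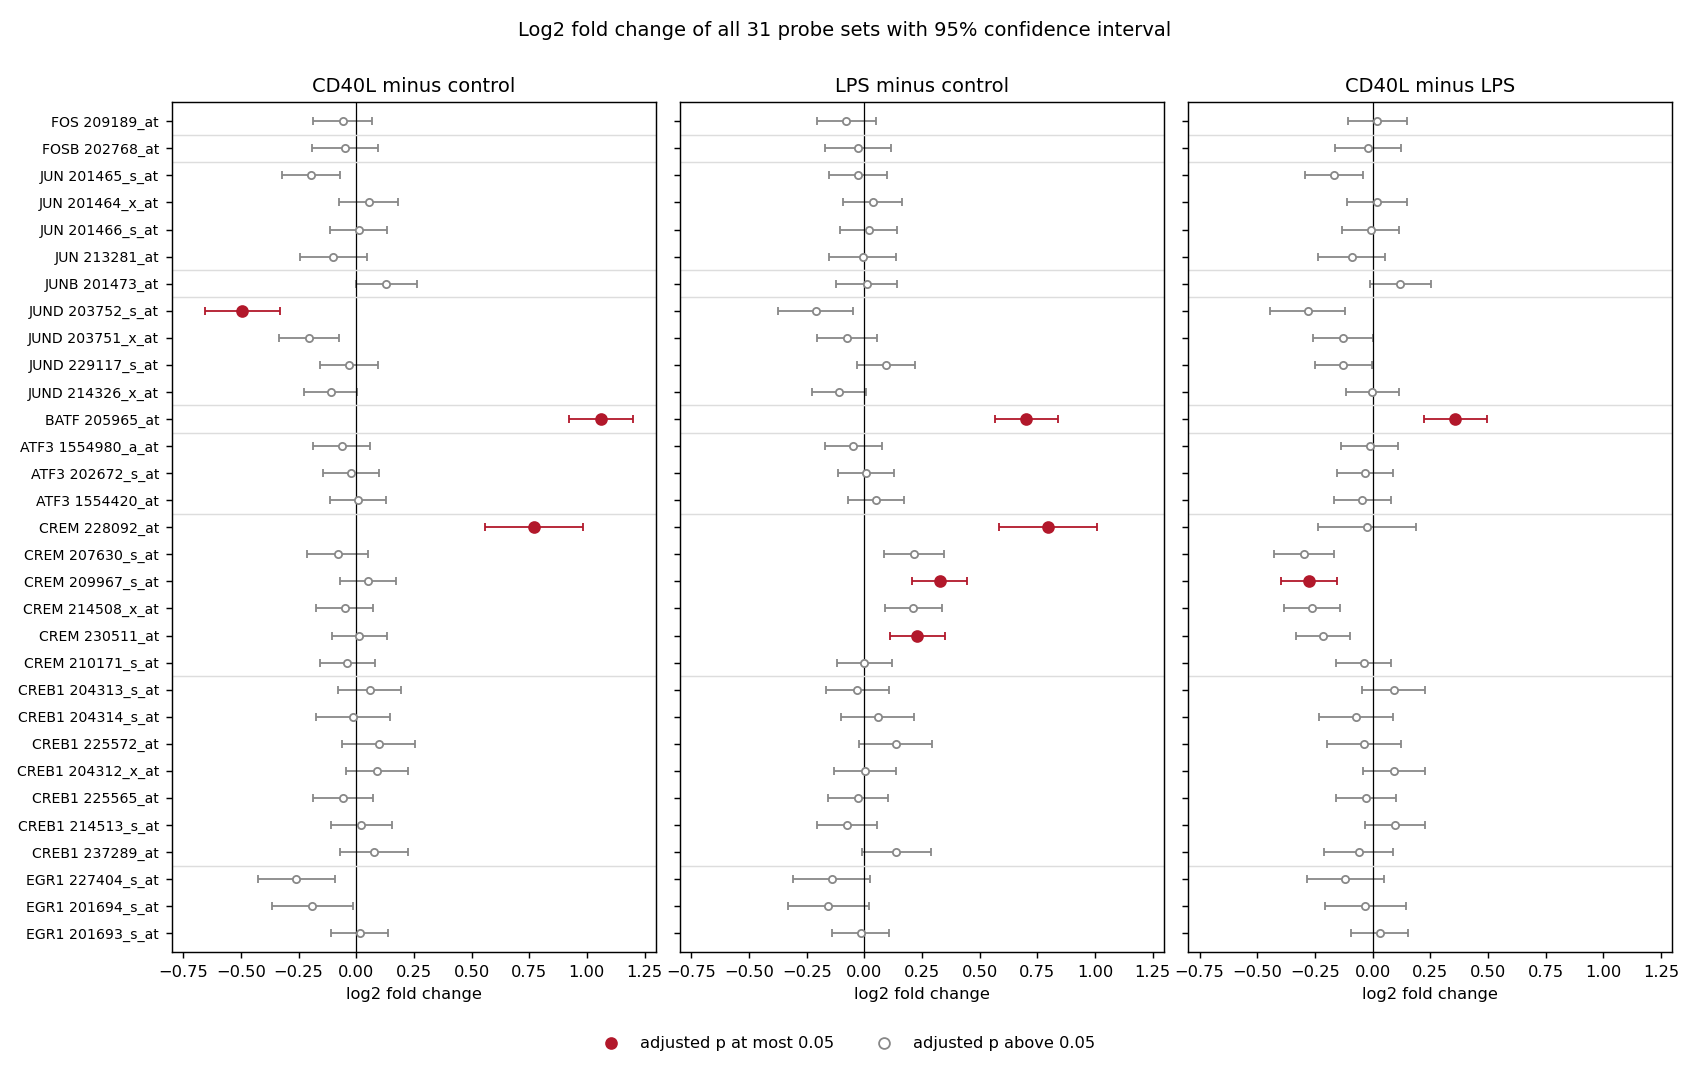
Log2 fold change (x axis) of all 31 probe sets (y axis, by gene) in the left panel CD40L against control, in the middle LPS against control and on the right CD40L against LPS, with 95% confidence intervals from limma. Filled red points passed an adjusted p of 0.05, and they belong to BATF, CREM and JUND only.

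Among the AP-1 proteins, BATF showed the largest change of the 31 probe sets after CD40L. BATF lacks a transactivation domain of its own and is known as a regulator of lymphocyte differentiation and of class switching in B cells. Its 1 probe set, 205965_at, had levels of 9.69, 9.80 and 9.79 after CD40L, 9.18, 9.50 and 9.51 after LPS, and 8.67, 8.69 and 8.72 in control. Every CD40L array lay above every LPS array, and every LPS array above every control array. The log2 fold change was 1.06 ± 0.065 (SE, n = 3 arrays each, 95% interval 0.92 to 1.20) for CD40L against control, a 2.09-fold higher level, with an adjusted p of 9e-08 in limma. For LPS against control it was 0.70 ± 0.065 (1.63-fold, limma adjusted p = 5.67e-05). Both calls held in all 21 alternative analyses. The direct difference of CD40L and LPS was 0.36 (95% interval 0.22 to 0.50, limma adjusted p = 0.0181), and it passed in 11 of 21 alternatives. It did not pass without the batch term, with the batch as a random effect, without batch 1 or 3, or without any 1 of the CD40L and LPS arrays.

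**Figure D2:**
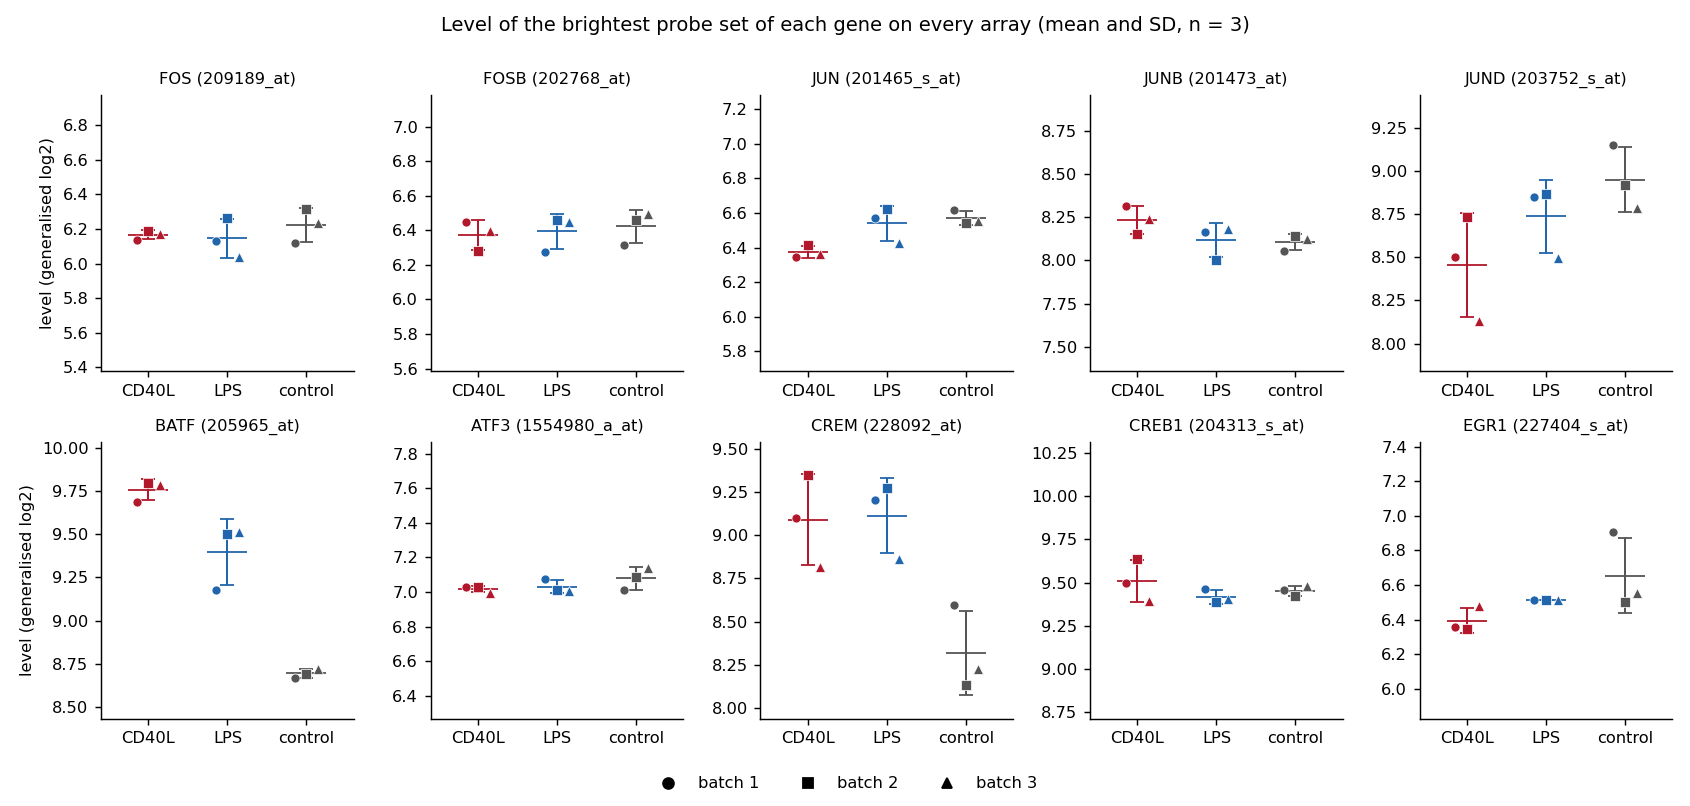
Level on the generalised log2 scale (y axis, each panel spanning the same number of units) of the brightest probe set of each of the 10 genes after CD40L, after LPS and in control (x axis). Symbols are single arrays by batch, bars are the mean and SD of 3 arrays, and the groups stand fully apart for BATF alone, while CREM separates both stimuli from control.

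JUND is the JUN protein that resting cells hold at a steady level, and it often restrains growth. Its brightest probe set, 203752_s_at, had levels of 8.50, 8.73 and 8.13 after CD40L, 8.85, 8.87 and 8.49 after LPS, and 9.15, 8.92 and 8.78 in control. The CD40L arrays all lay below the control arrays, and the LPS arrays lay between and overlapped with both. JUND was lower after CD40L by a log2 fold change of −0.49 ± 0.077 (SE, 95% interval −0.66 to −0.33, limma adjusted p = 0.000843). Within batches 1, 2 and 3 the difference was −0.65, −0.19 and −0.65. This call was lost without the batch term, with the batch as a random effect and without batch 3. After LPS the value was −0.21 (adjusted p = 0.232, limma), and CD40L minus LPS gave −0.28 (adjusted p = 0.264, limma), so a difference between the stimuli did not pass. The other 3 JUND probe sets had means within the floor guide. In the array maker's naming, the ending _x_at marks probe sets that may also bind other transcripts. Of the 3, 203751_x_at gave −0.20 for CD40L against control (limma adjusted p = 0.064), 214326_x_at −0.11 (0.341) and 229117_s_at −0.03 (0.89).

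JUNB, the JUN protein best known from activated lymphocytes, was well above the floor guide. Its levels were 8.32, 8.16 and 8.24 after CD40L, 8.16, 8.002 and 8.18 after LPS, and 8.05, 8.14 and 8.13 in control. The CD40L arrays stood just above the control arrays, with a gap smaller than the spread within the group. The log2 fold change was 0.13 for CD40L (95% interval −0.0019 to 0.26, limma adjusted p = 0.327) and 0.0095 for LPS (95% interval −0.12 to 0.14, limma adjusted p = 0.984).

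FOS, FOSB and JUN, the classical immediate early AP-1 genes, were dim in all 3 conditions. FOS lay at 6.14 to 6.19 after CD40L, 6.04 to 6.27 after LPS and 6.12 to 6.32 in control. FOSB lay at 6.28 to 6.45 after CD40L, 6.28 to 6.46 after LPS and 6.31 to 6.50 in control. For both genes the 3 conditions overlapped, and limma gave 0 calls and 0 unadjusted p-values under 0.05. The 4 probe sets of JUN had means of 5.96 to 6.50. Its brightest, 201465_s_at, stood at 6.35, 6.41 and 6.36 after CD40L, 6.57, 6.62 and 6.43 after LPS, and 6.62, 6.54 and 6.55 in control. All CD40L arrays were below all others, but the difference from control of −0.20 did not pass (limma adjusted p = 0.071), and the other 3 JUN probe sets gave −0.10, 0.01 and 0.05.

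In the CREB family, CREM stood apart, and its probe sets did not all move alike. CREM encodes activators and, through other starts and splice forms, repressors of CRE-driven transcription, among them the inducible early repressor ICER. The brightest probe set, 228092_at, had levels of 9.10, 9.35 and 8.82 after CD40L, 9.20, 9.28 and 8.86 after LPS, and 8.60, 8.13 and 8.23 in control. Both stimuli lay above control on every array, while CD40L and LPS overlapped. The log2 fold change was 0.77 ± 0.10 (SE, 1.71-fold, limma adjusted p = 0.000153) for CD40L and 0.80 ± 0.10 (1.74-fold, limma adjusted p = 0.000427) for LPS. Batch 2 held the largest differences, 1.22 for CD40L and 1.14 for LPS, against 0.50 and 0.61 in batch 1 and 0.59 and 0.64 in batch 3. Both calls held in all 21 alternatives. CD40L minus LPS was −0.02 with a 95% interval of −0.24 to 0.19 (limma adjusted p = 0.999).

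Another CREM probe set, 209967_s_at, was higher after LPS alone. Its levels were 8.31, 8.34 and 8.32 after CD40L, 8.55, 8.58 and 8.67 after LPS, and 8.30, 8.24 and 8.28 in control. The LPS arrays were above all others, and the CD40L arrays lay just above the control arrays. The log2 fold change was 0.33 ± 0.057 for LPS (SE, limma adjusted p = 0.0054), 0.05 for CD40L (adjusted p = 0.784) and −0.28 for CD40L minus LPS (adjusted p = 0.0473). The LPS call was lost without batch 1, without batch 3 and without the LPS array of batch 3, and the direct call was lost in 15 of 21 alternatives.

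Of the other CREM probe sets, 230511_at had levels of 6.74, 6.82 and 6.79 after CD40L, 6.96, 7.02 and 7.02 after LPS, and 6.73, 6.86 and 6.72 in control. Its difference of 0.23 for LPS passed (limma adjusted p = 0.0427), at a mean level within the floor guide, and was called in 6 of 21 alternatives. For LPS against control, 207630_s_at gave 0.22 (adjusted p = 0.0976, limma) and 214508_x_at gave 0.21 (adjusted p = 0.0763, limma), and neither passed. For CD40L against control the 5 CREM probe sets other than 228092_at lay between −0.08 and 0.05. In CD40L minus LPS, 207630_s_at gave −0.30 (adjusted p = 0.0513) and 214508_x_at −0.26 (adjusted p = 0.0749), both in limma. For these 2 probe sets and for 209967_s_at and 230511_at, every LPS array was above every CD40L array. Full separation, in either direction, held for 10 of the 31 member probe sets in this comparison. Its share over all probe sets was not counted, so the separation is only a description. Among these CREM probe sets only 209967_s_at passed, and 230511_at gave −0.22 (limma adjusted p = 0.2). The sixth, 210171_s_at, stayed at 6.18 to 6.33 on all arrays. Which CREM transcripts each probe set reads is not annotated in the files used here.

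**Figure D3:**
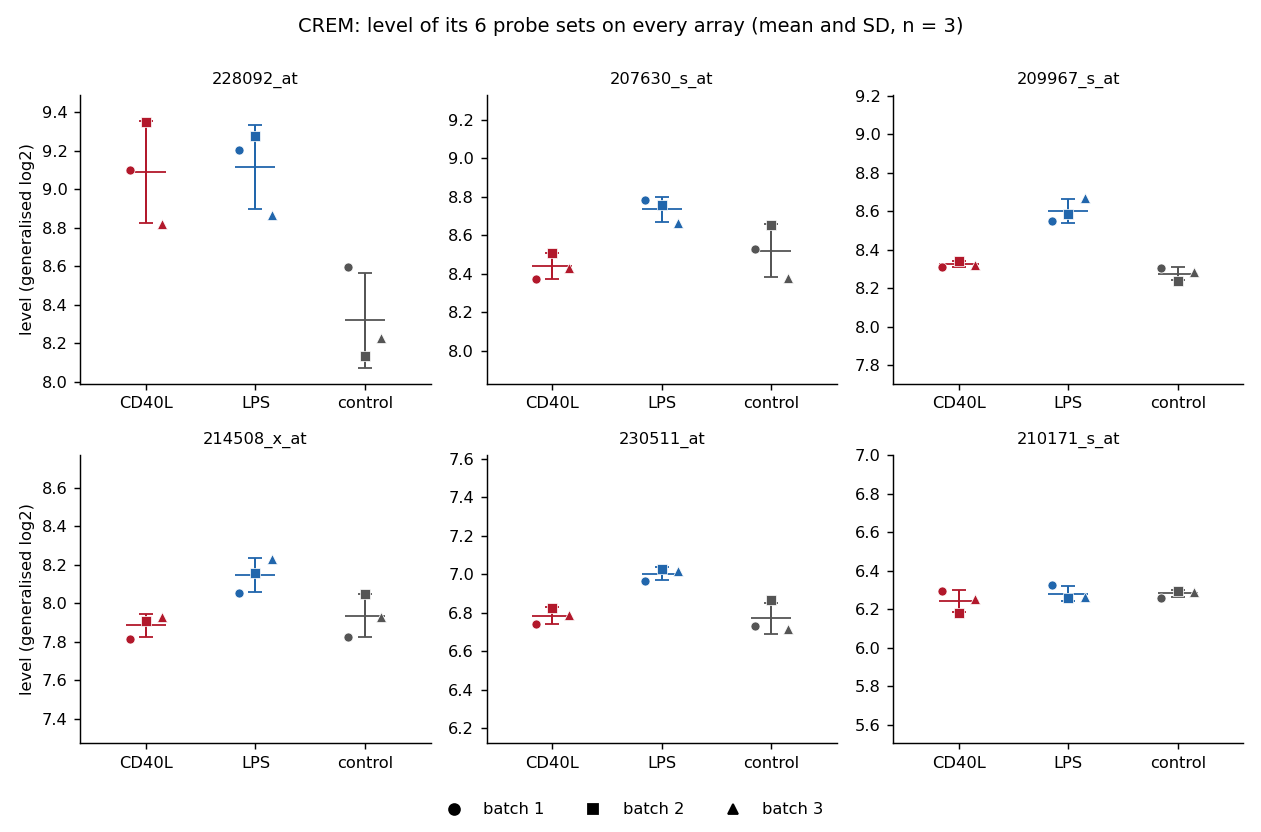
Level on the generalised log2 scale (y axis) of the 6 CREM probe sets after CD40L, after LPS and in control (x axis), with single arrays by batch and the mean and SD of 3 arrays. Only 228092_at is called higher after both stimuli. Between CD40L and LPS only 209967_s_at passed, and that call was lost in 15 of 21 alternatives.

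CREB1, the constitutive CRE-binding activator, was clearly expressed, with means of 8.24 to 9.46 over 7 probe sets. In limma 0 of the 7 were called in any comparison, and 0 had an unadjusted p under 0.05. Its brightest probe set, 204313_s_at, had levels of 9.50, 9.64 and 9.39 after CD40L, 9.46, 9.39 and 9.41 after LPS, and 9.46, 9.42 and 9.48 in control, and the groups overlapped. Over the 7 probe sets the 95% intervals against control lay within −0.19 to 0.26 for CD40L and −0.21 to 0.29 for LPS on the log2 scale. ATF3 had 3 probe sets with means of 6.35 to 7.04, only 1 of them above the floor guide. That probe set, 1554980_a_at, stood at 7.03, 7.03 and 6.99 after CD40L, 7.07, 7.01 and 7.003 after LPS, and 7.01, 7.09 and 7.14 in control. The groups overlapped, and 0 of the 3 ATF3 probe sets passed in limma or had an unadjusted p under 0.05.

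EGR1 was dim at 6 hrs. Its 3 probe sets had means of 6.31 to 6.52, within the floor guide. The brightest, 227404_s_at, had levels of 6.36, 6.35 and 6.48 after CD40L, 6.51, 6.51 and 6.52 after LPS, and 6.91, 6.50 and 6.56 in control. The control array of batch 1 was the highest of the 9, and the CD40L arrays were below all others. CD40L against control gave −0.26 (limma adjusted p = 0.0691), which did not pass and was called in 5 of 21 alternatives. For 201694_s_at the value was −0.19 (limma adjusted p = 0.262), again with the control array of batch 1 highest at 6.87, and 201693_s_at gave 0.01.

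To set the members among the genes they work with, 110 genes in 7 lists were examined, of which 101 were measured and were taken by the brightest probe set. Where a called gene had several probe sets, the others did not all pass. After CD40L, 1 of 3 passed for IRF4, 1 of 11 for AKAP13, 2 of 7 for CREBZF and 3 of 6 for PDE7A. It was 2 of 4 for CREB5 and ATF5, 2 of 3 for PRKACB, and 1 of 2 for JDP2, SRF, ELK3, MAP2K6 and MAP3K8. After LPS it was 1 of 4 for CREB5, 1 of 3 for IRF4, 2 of 7 for CREBZF, 2 of 3 for PRKACB and 1 of 2 for MAP2K6 and MAP3K8. In CD40L minus LPS it was 2 of 4 for ATF5, 2 of 6 for PDE7A and 1 of 2 for ELK3. The lists were chosen with earlier results of these data known, so the shares that follow are a description and not a test of a pathway. The shares of all genes given here also stand beside the counts of each list below. After CD40L, 12 of them were higher and 10 lower than in control, which is 11.9% and 9.9%, beside 5.03% and 2.92% of all genes. LPS cells had 5 genes higher and 5 lower than control, 4.95% each, beside 1.62% and 1.48% of all genes. CD40L was above LPS for 4 and below it for 2, 3.96% and 1.98%, beside 0.491% and 0.152%. The list of the 2 IRF genes had a median log2 fold change of −0.23 for CD40L and 0.07 for LPS, midway between IRF4 and IRF8. In the other lists the median lay between −0.08 and 0.07 for CD40L and between −0.0047 and 0.04 for LPS. All probe sets had medians of 0.0050 and 0.0029.

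By their brightest probe sets, the IRF partners of BATF moved in opposite directions. IRF4, which drives plasma cell fate, had levels of 10.80, 10.67 and 10.63 after CD40L, 10.98, 10.84 and 10.64 after LPS, and 10.44, 9.99 and 10.30 in control. IRF8, a germinal centre B cell factor, had 10.19, 10.05 and 10.13 after CD40L, 10.64, 10.49 and 10.73 after LPS, and 10.92, 11.11 and 11.11 in control. Neither gene's stimulated arrays overlapped with control, and IRF8 was also lower after CD40L than after LPS on every array. IRF4 was higher by 0.46 for CD40L (limma adjusted p = 0.00176) and 0.58 for LPS (limma adjusted p = 0.000766). For IRF8 the log2 fold change was −0.92 for CD40L (limma adjusted p = 5.67e-07), −0.43 for LPS (0.00347, lost without batch 3) and −0.50 for CD40L minus LPS (0.00226, lost in 4 of 21 alternatives).

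Of 19 other measured CREB and ATF genes and coactivators, 2 were higher and 2 lower after CD40L, and 1 was higher and 2 lower after LPS. CREBZF, a leucine zipper protein that binds other factors, was higher after both, by 0.61 for CD40L (limma adjusted p = 0.000153) and 0.57 for LPS (0.000997). ATF5, a factor of the stress response, was higher after CD40L, by 0.55 (limma adjusted p = 0.000334), and gave 0.12 after LPS (0.637). CD40L minus LPS was 0.43 for ATF5 (limma adjusted p = 0.0177, lost in 9 of 21 alternatives). CREB5 was lower after both, with −0.61 for CD40L (limma adjusted p = 0.000137) and −0.34 for LPS (0.0288). CREB3L4, a membrane-bound CREB relative, was lower with −0.43 after either stimulus (limma adjusted p = 0.00123 for CD40L and 0.00368 for LPS). The means of CREB3L4 after CD40L (6.88) and LPS (6.89), and of CREB5 after CD40L (6.84), lay within the floor guide. The LPS values of CREB5 and CREB3L4 lost their calls in 8 and 3 of 21 alternatives. Among 16 other AP-1 and basic leucine zipper genes, JDP2, a repressor that pairs with JUN, was the only call by the brightest probe set, higher by 0.28 after CD40L (limma adjusted p = 0.0224, called in 12 of 21 alternatives), with 0 of 16 called after LPS and 2 of 16 at an unadjusted p under 0.05, beside 15% of all genes. By the probe set of largest change, 2 genes of this list were higher and 2 lower after CD40L, since a less bright probe set of NFE2L1 was called higher and one each of BACH2 and MAFF lower, genes named after their values were seen.

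The cAMP pathway list held 16 genes, with 1 higher and 3 lower after CD40L and 0 higher and 1 lower after LPS. PRKACB, a catalytic subunit of protein kinase A, had levels of 10.31, 10.22 and 10.15 after CD40L, 10.55, 10.35 and 10.44 after LPS, and 10.93, 10.99 and 10.93 in control. Its stimulated arrays were all below control, with log2 fold changes of −0.72 (limma adjusted p = 2.27e-06) and −0.50 (0.000363). PDE7A, a cAMP phosphodiesterase, was higher after CD40L by 0.43 (limma adjusted p = 0.000187) and gave 0.04 after LPS (0.888), and CD40L minus LPS was 0.39 (0.00322, lost in 4 of 21 alternatives). The regulatory subunit PRKAR2B gave −0.29 and the anchoring protein AKAP13 −0.30 after CD40L (limma adjusted p = 0.0173 and 0.04), and these calls held in 12 and 9 of 21 alternatives.

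Of 22 MAP kinases and the kinases around them, 4 were higher and 2 lower after CD40L, and 2 were higher and 1 lower after LPS. RPS6KA1, the ribosomal S6 kinase RSK1 that phosphorylates CREB, had levels of 9.89, 9.86 and 9.50 after CD40L, 9.48, 9.45 and 9.03 after LPS, and 9.07, 8.54 and 8.77 in control. CD40L lay above control throughout, and 1 LPS array overlapped with control. The log2 fold change was 0.96 for CD40L (limma adjusted p = 1.12e-05) and 0.53 for LPS (0.0072, lost in 5 of 21 alternatives). MAP3K14, the kinase NIK of the non-canonical NF-kB pathway, was higher after CD40L, by 0.64 against control (limma adjusted p = 5.09e-05) and by 0.61 against LPS (0.000628), while LPS gave 0.03 (0.951). Its means after LPS (6.47) and in control (6.44) lay within the floor guide, and that after CD40L (7.08) just above it. MAP3K8, a kinase above ERK, gave 0.30 and 0.29 (limma adjusted p = 0.0119 for CD40L and 0.034 for LPS), at levels within the floor guide, and the calls were lost in 3 and 11 of 21 alternatives. The ERK kinase MAP2K1 gave −0.27 after CD40L (limma adjusted p = 0.0107, lost in 6 of 21 alternatives), and MAP2K6, a kinase above p38, was lower after both, with −0.27 for CD40L (limma adjusted p = 0.0158, lost in 7 of 21) and −0.26 for LPS (0.0449, lost in 17 of 21).

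Of 16 other immediate early genes, 1 was higher and 2 lower after CD40L, and 1 was higher after LPS. IER5 had levels of 10.45, 10.44 and 10.40 after CD40L, 10.26, 10.21 and 10.17 after LPS, and 9.77, 9.79 and 9.87 in control, with no overlap between any 2 groups. Its log2 fold change was 0.62 for CD40L (limma adjusted p = 5.33e-06) and 0.40 for LPS (0.00127, lost without batch 1), and the difference of 0.22 between the stimuli did not pass (0.233). IER2 was lower after CD40L, with −0.38 (limma adjusted p = 0.000762). IER3, a survival gene, gave −0.41 for CD40L against control (limma adjusted p = 0.00575) and −0.51 for CD40L minus LPS (0.00856), lost in 3 and 8 of 21 alternatives. The mean of IER3 after CD40L, 6.96, lay at the top of the floor guide. Among 10 measured EGR relatives, corepressors and serum response factors, the ETS factor ELK3 gave 0.27 (limma adjusted p = 0.0108) and the serum response factor SRF 0.23 (0.0272) for CD40L against control, lost in 3 and 11 of 21 alternatives. ELK3 was also higher after CD40L than after LPS, by 0.42 (limma adjusted p = 0.00243, lost without batch 3 and without the CD40L array of batch 3). Of this list 0 genes were called after LPS, with 4 of 10 at an unadjusted p under 0.05, beside 15% of all genes.

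**Figure D4:**
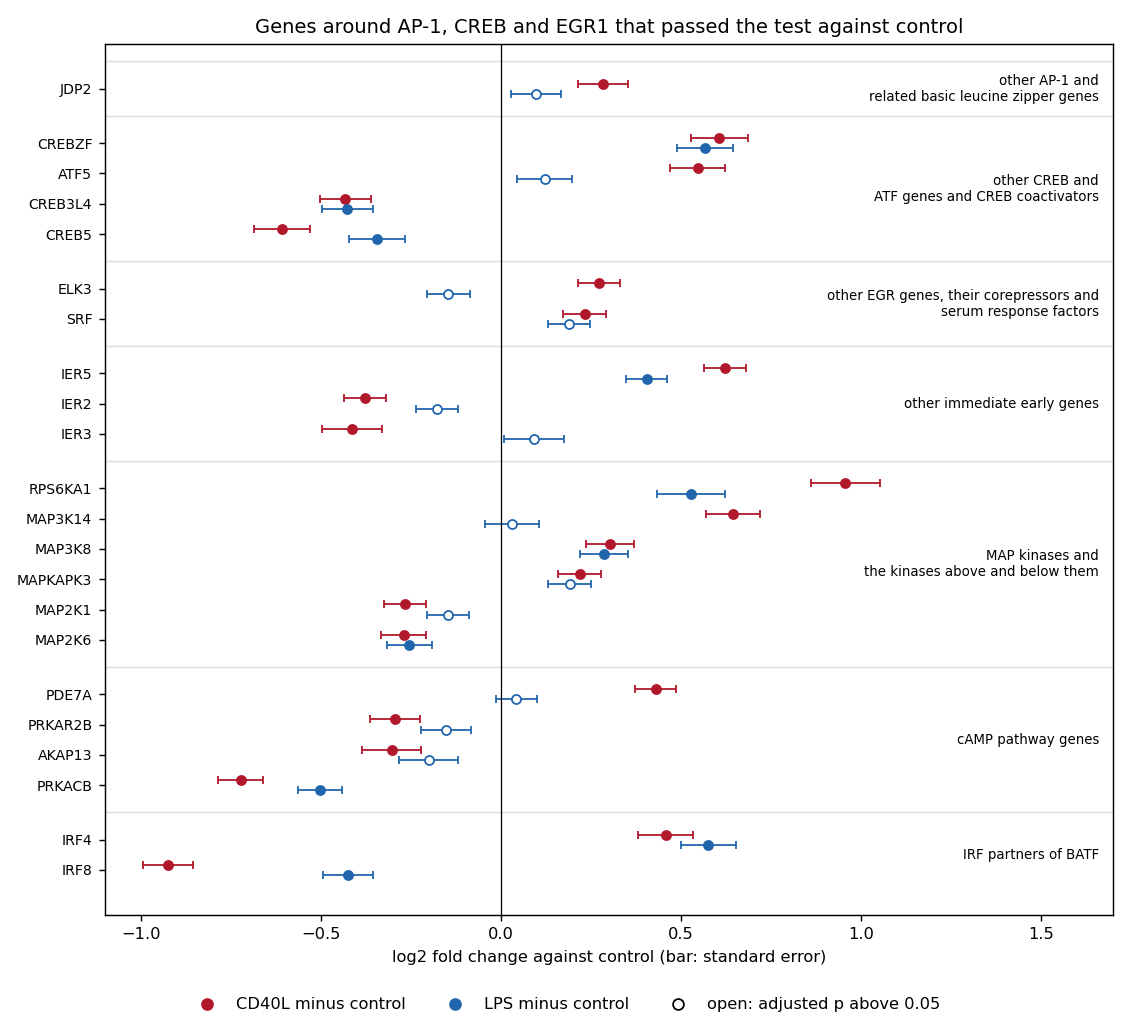
Log2 fold change against control (x axis, bars are standard errors) of the 22 related genes that passed in at least 1 comparison with control (y axis, by list), for CD40L in red and LPS in blue, with open circles where the adjusted p was above 0.05. PRKACB and IRF8 are lower and CREBZF, IER5, RPS6KA1 and IRF4 higher after both stimuli, while MAP3K14, ATF5 and PDE7A are called for CD40L alone. The LPS and control means of MAP3K14 lay within the floor guide.

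As a description with no test, the genes whose level followed each called member most closely over the 9 arrays were ranked by Pearson r after the batch means were taken off. The arrays share conditions, so such values are high for many genes. For BATF they were CTSC (r = 0.997), TNFRSF18 (r = 0.996) and HLA-B (r = 0.995), which encode cathepsin C, the receptor GITR and an MHC class I chain. For CREM 228092_at they were ABCE1 (r = 0.999), BAG5 (r = 0.997) and TTC19 (r = 0.997), and for JUND OSBPL3 (r = 0.993), FUT6 (r = 0.987) and IGF2BP3 (r = 0.987).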

How the data were processed

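RNA of BL2 cells was measured on 9 arrays (CD40L, LPS and control, 3 each). The authors transformed the probe intensities by variance stabilisation, used median polish to obtain 1 value per probe set, on a generalised log2 scale. These deposited log2 values were used as given, with 0 sample columns unused. Of 54675 probe sets, 62 AFFX controls were left out, and of the 54613 tested the platform annotation names 1 gene for 41091, several for 1801 and none for 11721. All 31 member probe sets matched.

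Log2 fold changes came from limma 3.58.1 (lmFit and eBayes, R 4.3.3) of the 9 arrays on condition plus batch (4 residual and 11.6 prior degrees of freedom), two-sided, with Benjamini-Hochberg adjustment over all probe sets tested and a threshold of 0.05. An exact permutation test of 3 against 3 arrays cannot go below 0.1 and was not used. The numbers in the sample titles mark the batches, which the study's methods model, so arrays of 1 batch were paired. Their deviations from the group means correlated at −0.181 to 0.466 (mean 0.217), with 7 of 9 pairs above 0.1. Pairs from different batches ran from −0.486 to 0.383, so some were as high. The control array of batch 2 gave −0.181 with the CD40L array and −0.040 with the LPS array of its own batch. For the random-effect fit, limma estimated a low shared correlation within batches, 0.0724. The pairing therefore rests on the titles and the study's methods, and these values alone do not settle it. The script was tested on simulated data. The number of arrays limits the precision.

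Named genes are all member probe sets, of each related list up to 4 called genes per comparison by lowest adjusted p, and the 3 closest genes of each called member. The members and lists were chosen with earlier results of these data known. The 21 alternatives were no batch term, the batch as a random effect (statmod 1.5.0), only the 2 conditions compared, median centring, quantile normalization, AFFX probe sets kept, only probe sets brighter than the median, eBayes with trend or robust, and each batch and each array left out. For the related lists the probe set of largest change was tried too. The CD40L calls of MAP2K6 and MAPKAPK3 fall outside the naming rule, and MAPKAPK3 is only plotted.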

Additional observations from a re-analysis of the deposited data

How the results depend on the processing

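Of the members, the calls of BATF and of CREM 228092_at against control held in all 21 alternatives, and 0 results changed direction among called values. For CD40L against control (3 member probe sets called), quantile normalization gave 6 (2 higher and 4 lower, against 2 and 1), and leaving out a batch or an array gave 2 to 6. For LPS against control (4 called), leaving out gave 2 to 7. CD40L against LPS (2 called) depended on the setting, with 0 called in the fit with no replicate block (unpaired), 0 with the batch as a random effect, 5 with only the 2 conditions compared, 4 after quantile normalization, 1 each after median centring, with the filter on dim probe sets and with eBayes trend, and 0 to 5 with a batch or array left out. Of the related genes, 22 were called for CD40L (14 to 21 when leaving out, 15 with no replicate block), and 27 by the probe set of largest change (15 higher and 12 lower, against 12 and 10). For LPS 10 were called, against 6 with no replicate block, 6 with the batch as a random effect and 5 to 13 when leaving out. For CD40L minus LPS 6 were called, and 1 to 8 when leaving out. Over all probe sets, the CD40L calls were 2027 higher and 1022 lower, against 884 and 562 with no replicate block. The cause was not tested.

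Of the uncalled probe sets, 24 of 28 for CD40L, 24 of 27 for LPS and 26 of 29 for the direct comparison were called in no alternative. Levels near the floor limit what can be said of FOS, FOSB, JUN and EGR1, and a single time point of 6 hrs leaves earlier changes unmeasured. The sample labels give this time for the CD40L and LPS arrays and no time for the control arrays.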
